A study of Homo sapiens with 12 samples.

Results

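Interferon-stimulated genes that encode antiviral effector proteins were examined as a set of 56 genes. They were matched by symbol from a list of known effectors, and all 56 were found among the 60660 gene identifiers of the count table and passed the filter on low counts. RNA had been sequenced from 12 libraries labelled HS578T, an established line of mesenchymal, triple-negative breast cancer, with 3 libraries in each of 4 groups. Per the labels, 2 groups were 17p-intact cells, titled Cas9 and recorded as wild type, and 2 were cells with 1 copy of the short arm of chromosome 17 knocked out, titled 17PKO. In each genotype 1 group received the vehicle DMSO and 1 received doxorubicin, an anthracycline that traps DNA topoisomerase II on DNA, for 48 h. The dose was 170 nM for intact cells and 1 µM for deleted cells. Genotype and dose therefore cannot be told apart in any comparison of the treated groups or of the responses, and any other difference between the 2 cell populations goes with the genotype label as well. The labels do not say whether deleted cells were 1 clone or a pool, whether they also carry Cas9, or whether replicate libraries came from separate dishes. The p-values below therefore cover variation among these libraries alone, which could be technical.

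Interferons are secreted proteins that cells release after sensing foreign or misplaced nucleic acid. Type I and type III interferons bind their receptors, the kinases JAK1 and TYK2 are activated, and a transcription factor complex that contains STAT2 and IRF9 binds interferon-stimulated response elements in the promoters of target genes. The products block viruses at successive steps: entry at membranes, uncoating, translation, RNA stability, genome replication and release of particles. Many of these genes are also expressed at a basal level in cancer cell lines without added virus or interferon, and DNA-damaging drugs are among the treatments known to raise them.

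Library totals ran from 66150539 to 99142099 counts, so that 3 counts stood for 0.0305 to 0.0444 CPM. CPM is the deposited count scaled to the TMM-scaled size of its library. Mitochondrial genes took 2.61% to 3.57% of counts in 10 libraries, 6.90% in deleted DMSO replicate 2 and 5.54% in intact 170 nM replicate 1. The Spearman rho between GC content and the deviation of genes from their group mean was lowest in these 2 libraries, at -0.51 and -0.44, and ran from -0.16 to 0.48 in the other 10, with intact 170 nM replicate 2 at the top. All 10 markers of mesenchymal breast lines had at least 1 CPM in each group, and the markers of blood cells summed to at most 5.78 CPM in a library. Of 8 luminal and epithelial markers 4 or 5 reached 1 CPM, and all 8 summed to 414 to 637 CPM. The mesenchymal markers summed to 10380.0 to 10780.0 CPM in intact DMSO, 7684 to 8104 in deleted DMSO, 9002 to 9197 in intact 170 nM and 6166 to 6264 in deleted 1 µM. The sum was lower in deleted cells at both treatments, but not each marker was. Log2 fold changes of deleted against intact cells were below 0 for 7 of 10 markers in DMSO and 6 in treated cells. AXL, COL6A1 and CD44 had higher means in deleted cells at both treatments. The part of these markers in the results was not tested. Transcripts specific to single chromosomes went against the recorded karyotype of the line in 12 of 12 libraries. The labelled loss was faint in RNA: 233 genes of 17p had a median log2 ratio of -0.13 between deleted and intact DMSO, against 0.04 for 13121 other genes.

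Cells labelled 17p-deleted held less RNA of the antiviral set than intact cells before treatment, and most members rose in these cells at 1 µM doxorubicin. Summed over the 56 members, the level was 2986 to 3059 CPM in intact DMSO libraries and 2091 to 2245 CPM in deleted DMSO libraries. It was 3620.5 to 3777 CPM in intact cells at 170 nM and 3326 to 3384 CPM in deleted cells at 1 µM. No library of one group fell within the range of another. Deleted DMSO had the lowest group mean for 45 of 56 members. The mean in deleted cells at 1 µM was above that of untreated intact cells for 31 members and not above it for 25. The highest mean lay in intact 170 nM for 29 members and in deleted 1 µM for 25. Within groups the median coefficient of variation of members was 4.90% in intact DMSO, 13.9% in deleted DMSO, 13.1% in intact 170 nM and 4.88% in deleted 1 µM. The 2 wider groups are those that hold the libraries of high mitochondrial share. In bulk samples, fewer cells that express a gene and less RNA per cell cannot be told apart.

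**Figure D1:**
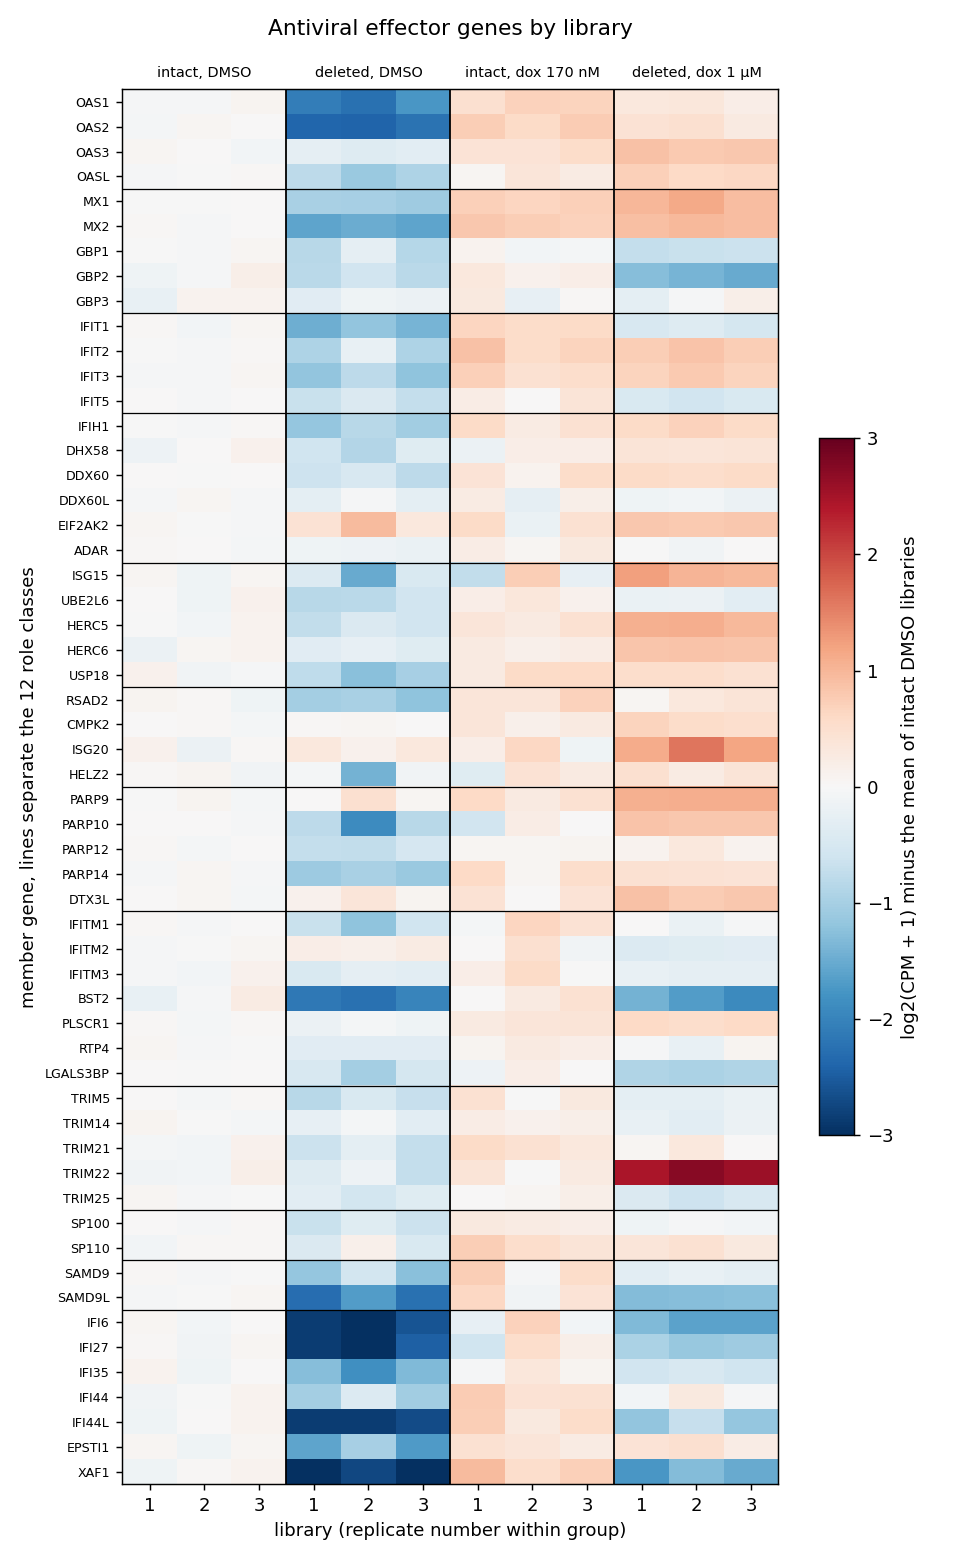
Level of each of the 56 antiviral genes (rows, lines separate 12 role classes) in each of the 12 libraries (columns), as log2(CPM + 1) minus the mean of the intact DMSO libraries, with colour limits at -3 and 3. Deleted DMSO libraries are mostly blue, with IFI6, IFI27, IFI44L and XAF1 darkest, and in deleted 1 µM libraries TRIM22 is the darkest red while BST2, GBP2, SAMD9L, IFI6 and XAF1 are still blue.

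The first comparison asked how the basal level of these genes differs between the genotypes in DMSO. Of the 56 members 42 were lower in deleted cells, where 16.2% of all 21803 genes tested were lower, and 1 was higher, EIF2AK2, where 18.8% of all genes were higher; 13 did not pass. Calls are Benjamini-Hochberg adjusted p-values under 0.05 from the edgeR quasi-likelihood test, adjusted over all genes tested, and changes are log2 fold changes with their standard errors. The median log2 fold change was -0.69 over the members and 0.04 over all genes. With a change of at least 2-fold as well, 21 members were lower. The share of all genes at that limit is not reported here. Leaving out RTP4, which had no count in any deleted DMSO library, log2 fold changes ran from -3.88 for XAF1 to 0.60 for EIF2AK2. All 7 members of the class of IFI-named and other induced proteins, all 4 of the class of 2-5A synthetases and all 4 IFIT proteins were lower. The nucleotide and RNA processing enzymes held the smallest share of lower calls, 1 of 4, namely RSAD2.

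At 170 nM in intact cells 4 of 56 members rose, MX1, MX2, OAS2 and IFIT1, where 0.0275% of all genes rose, and 0 fell, where 0.0321% of all genes fell. A further 23 members reached an unadjusted p under 0.05 without passing the adjustment, 27 in all, and none of these 27 was lower. Over all genes 11.5% had an unadjusted p under 0.05, in either direction. Log2 fold changes were above 0 for 54 of 56 members, with a median of 0.31 against 0.01 over all genes. No member moved by 2-fold and passed. The count of 4 depends on the fit: 16 rose by DESeq2, 20 with the GC trend removed and 12 without the 2 libraries of high mitochondrial share. In a fit of only these 2 groups 0 passed, and 0 members fell in each of these fits. Calls of a rise grew over all genes as well, from 6 to 253, 455 and 109 in the same order, and were 0 in the fit of 2 groups. Leaving out 1 library gave 0 rising members without any 1 of the 3 intact DMSO libraries or intact 170 nM replicate 1 or 3. It gave 2 without deleted DMSO replicate 1 or any 1 of the deleted 1 µM libraries. It gave 7 without intact 170 nM replicate 2 and 12 without deleted DMSO replicate 2, where 60 and 113 of all genes rose.

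At 1 µM in deleted cells 44 of 56 members rose, where 17.5% of all genes rose. GBP2 and IFITM2 fell, where 13.1% of all genes fell, and 10 members did not pass. The median log2 fold change was 0.97 over the members and -0.02 over all genes. A rise of at least 2-fold was seen for 27 members, and the share of all genes at that limit is not reported here. Leaving out RTP4, log2 fold changes ran from -1.59 for GBP2 to 3.50 for TRIM22. All members of the 2-5A synthetases, the ISG15 class, the nucleotide and RNA processing enzymes, the ADP-ribosylation class, the SAMD9 pair, the nuclear body proteins and the IFI-named class rose. The dynamin-like and guanylate-binding GTPases were divided: MX1 and MX2 rose, GBP2 fell, and GBP1 and GBP3 did not pass.

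**Figure D2:**
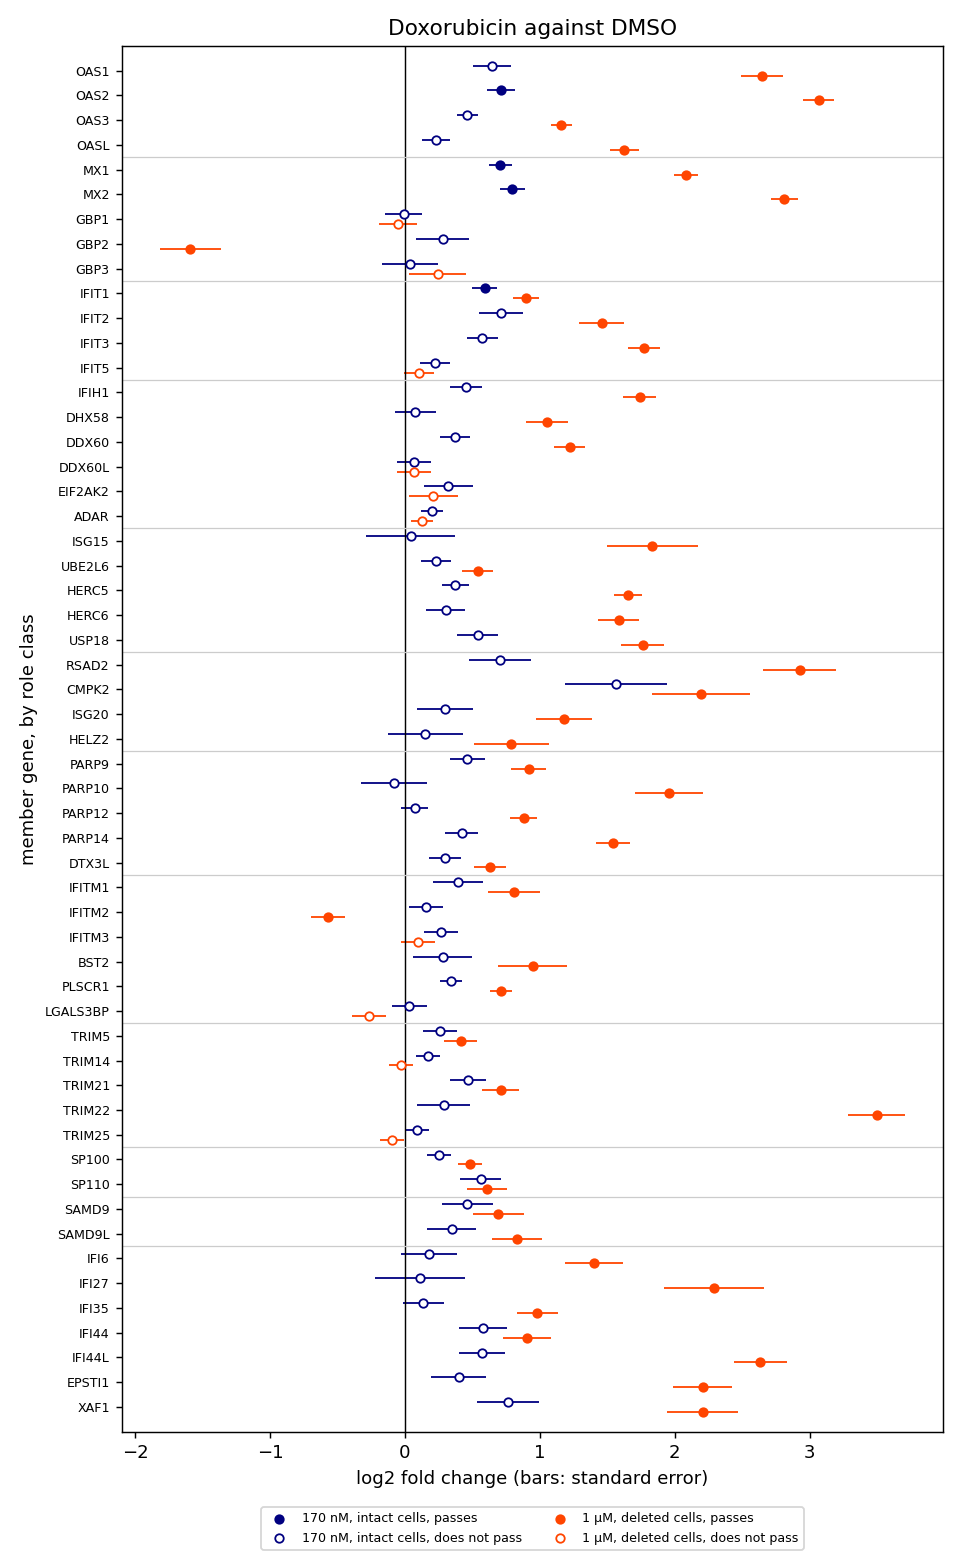
Log2 fold change (x axis, bars are standard errors) of doxorubicin against DMSO for 55 members (rows, by role class; RTP4 is left out because it had no count in deleted DMSO), at 170 nM in intact cells and at 1 µM in deleted cells. Filled points passed the test: 4 at 170 nM, and at 1 µM most members to the right of 0, with GBP2 and IFITM2 as filled points to the left.

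The responses at the 2 doses were also set against each other within 1 fit. The log2 fold change at 1 µM in deleted cells was called larger than that at 170 nM in intact cells for 28 of 56 members, where 10.3% of all genes were called larger. It was called smaller for 2, GBP2 and IFITM2, where 6.74% of all genes were called smaller, and 26 members did not pass. The median difference was 0.68 for the members and -0.03 for all genes. With the GC trend removed the calls were 29 larger and 6 smaller, or 82.9% larger in place of 93.3%; over all genes the same correction took the calls of smaller values from 1470 to 4445.

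Among treated cells, deleted at 1 µM against intact at 170 nM, more members were lower than higher. Of the 56 members 14 were higher, which is close to the share of all genes that were higher, 25.9%. Lower calls were made for 23 members, where 21.9% of all genes were lower, and 19 did not pass. Log2 fold changes had a median of -0.21 over the members and 0.02 over all genes. With the GC trend removed 10 were higher and 27 lower, a share of higher calls of 27.0% in place of 37.8%. Over all genes the share of higher calls fell as well, from 54.3% to 41.3%. That correction also shifted the median of all genes, to -0.15 here, to -0.13 for the response at 1 µM and to -0.19 for the difference of responses. The order of the 4 group means showed 2 patterns of 19 members each. In one, the order from low to high was deleted DMSO, intact DMSO, intact 170 nM and deleted 1 µM; it held MX1, MX2, OAS3, OASL, IFIT2, IFIT3, ISG15, HERC5, HERC6, TRIM22 and 9 others. In the other, it was deleted DMSO, deleted 1 µM, intact DMSO and intact 170 nM; it held IFI6, IFI27, IFI44L, XAF1, BST2, SAMD9, SAMD9L, IFIT1 and 11 others. Neighbours in these orders often lay within each other's spread, and the order itself was not tested.

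**Figure D3:**
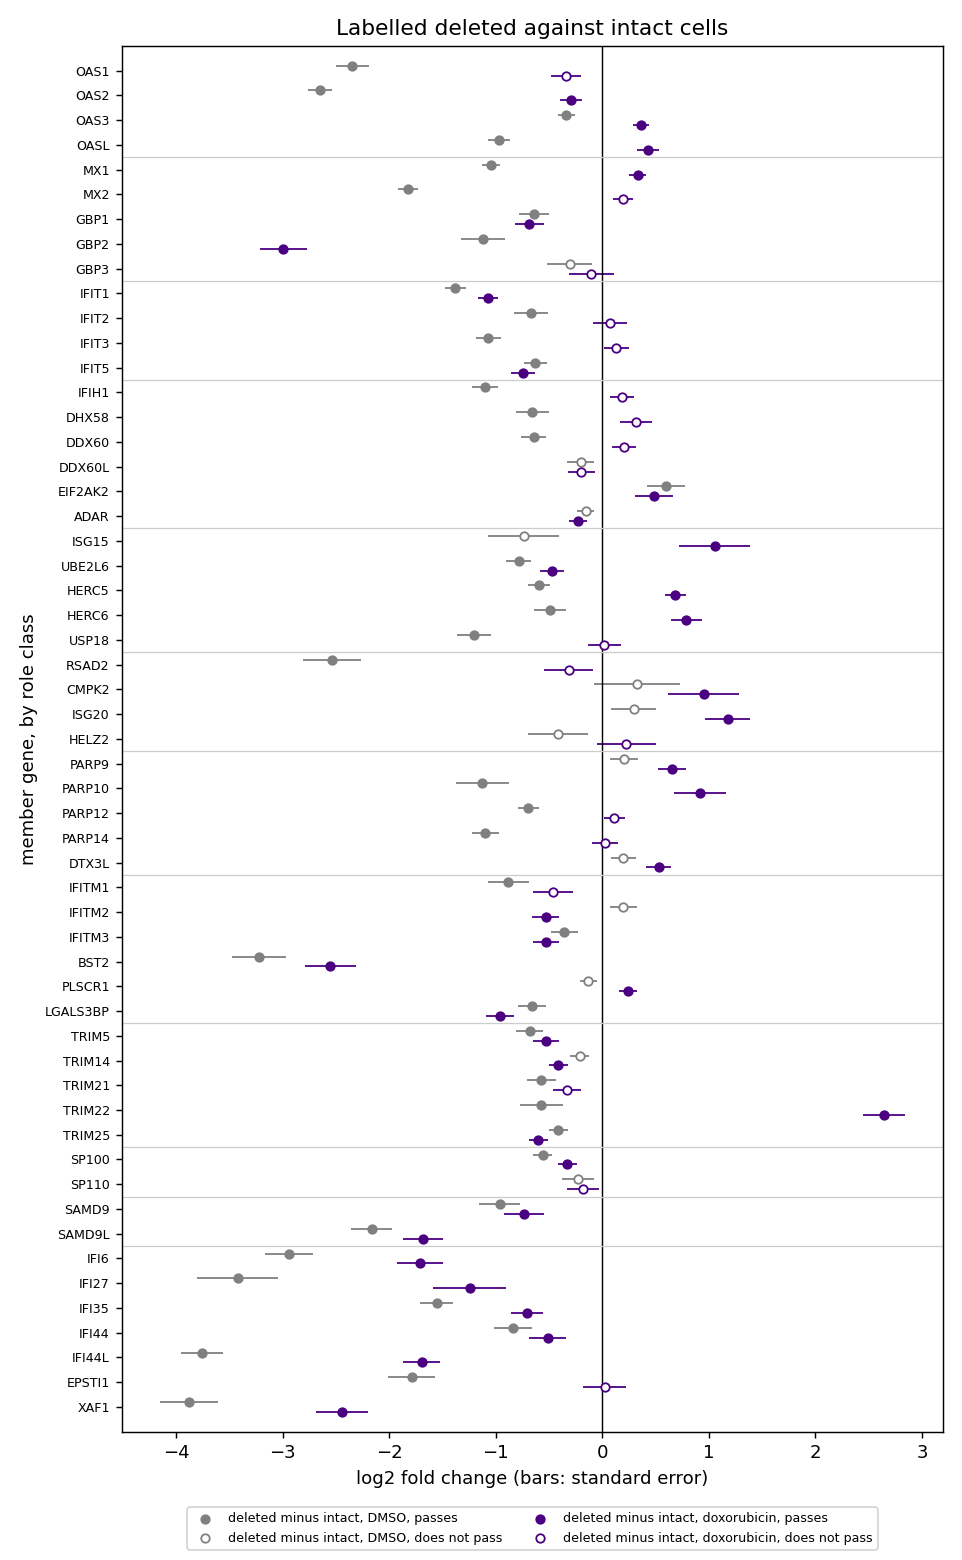
Log2 fold change (x axis, bars are standard errors) of deleted against intact cells for 55 members (rows, by role class; RTP4 left out), in DMSO and in doxorubicin at unequal doses. In DMSO nearly all points lie left of 0, whereas in doxorubicin TRIM22 lies at 2.64 and GBP2 at -2.99 with the other members between.

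Promoters were examined because they show what the members share beyond their names. RefSeq windows of 250 bases before to 50 bases after the annotated start (GRCh38.p14) were available for 46 members. The core of the interferon-stimulated response element was searched as GAAA, any 2 bases, GAAA on either strand, with overlapping matches counted. At least 1 core was found in 34 of 46 members (73.9%), against 1195 of all 27305 genes with a window (4.38%). A gamma-activated site, TTCNNNGAA, which reads the same on both strands, was found in 12 of 46 members (26.1%) against 9.38% of genes. Of members with a core 25 of 34 were lower in deleted DMSO and 26 of 34 rose at 1 µM, against 8 of 12 and 10 of 12 without one. The difference of responses was called larger for 47.1% with a core and 33.3% without. Between treated genotypes 26.5% were higher and 38.2% lower with a core, and 16.7% higher and 58.3% lower without. Over all genes tested, 16.2% were lower in deleted DMSO, 17.5% rose at 1 µM and 10.3% were called larger in the difference. Between treated genotypes 25.9% of all genes were higher, close to the share with a core, and 21.9% were lower. None of these shares was tested. A match describes letters and not bound protein, and the members were named for their known induction by interferon.

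Bases before the start that lie in no annotated exon are shown for 6 members whose response differed between the doses, in which capitals mark each core (GAAA repeats on the printed strand, TTTC repeats where the core lies on the other strand), and for XAF1 and SAMD9L, which had no core in the window and whose letters are all in lower case. The RefSeq intervals are chr4:88456869-88457116, chr1:78620198-78620381, chr10:89327747-89327893, chr12:112938224-112938351, chr2:6877527-6877664 and chr17:6755197-6755446 on the plus strand, and chr2:162318704-162318839 and chr7:93148386-93148635 on the minus strand, each printed 5′ to 3′ in the direction of the gene.
HERC5: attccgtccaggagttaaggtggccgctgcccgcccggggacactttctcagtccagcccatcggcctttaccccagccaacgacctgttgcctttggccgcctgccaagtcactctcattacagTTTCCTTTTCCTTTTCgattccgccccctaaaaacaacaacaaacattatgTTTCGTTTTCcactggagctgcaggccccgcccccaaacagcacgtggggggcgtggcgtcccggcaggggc
IFI44L: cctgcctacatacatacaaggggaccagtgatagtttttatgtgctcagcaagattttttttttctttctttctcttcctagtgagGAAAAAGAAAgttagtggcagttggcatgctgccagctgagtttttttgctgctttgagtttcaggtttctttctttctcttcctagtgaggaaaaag
IFIH1: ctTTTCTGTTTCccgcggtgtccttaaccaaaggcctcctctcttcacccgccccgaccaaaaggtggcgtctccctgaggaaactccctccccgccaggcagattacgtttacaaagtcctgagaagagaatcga
IFIT3: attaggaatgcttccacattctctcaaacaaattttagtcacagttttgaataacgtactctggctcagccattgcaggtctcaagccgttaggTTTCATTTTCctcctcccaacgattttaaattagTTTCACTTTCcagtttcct
OAS3: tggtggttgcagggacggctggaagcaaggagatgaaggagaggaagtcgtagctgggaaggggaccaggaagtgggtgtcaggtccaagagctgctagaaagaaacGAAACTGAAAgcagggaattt
RSAD2: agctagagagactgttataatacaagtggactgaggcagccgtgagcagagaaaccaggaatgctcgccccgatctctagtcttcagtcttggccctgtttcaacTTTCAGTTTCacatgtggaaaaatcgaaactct
XAF1: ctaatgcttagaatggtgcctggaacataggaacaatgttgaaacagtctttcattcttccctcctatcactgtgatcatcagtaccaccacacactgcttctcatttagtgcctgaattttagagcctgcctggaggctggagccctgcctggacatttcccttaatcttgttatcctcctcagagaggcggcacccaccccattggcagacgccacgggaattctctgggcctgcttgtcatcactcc
SAMD9L: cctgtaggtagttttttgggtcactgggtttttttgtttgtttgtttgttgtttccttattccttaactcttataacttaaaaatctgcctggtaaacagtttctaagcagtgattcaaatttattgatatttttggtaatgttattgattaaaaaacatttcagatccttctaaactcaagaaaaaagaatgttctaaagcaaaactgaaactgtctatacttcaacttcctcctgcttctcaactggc

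HERC5 has 3 cores in these bases, 2 of which overlap, IFIT3 has 2 and the other 4 have 1 each. Further cores of IFI44L, IFIH1 and OAS3 lie in bases not printed, and IFIT3 has others in its second window.

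**Figure D4:**
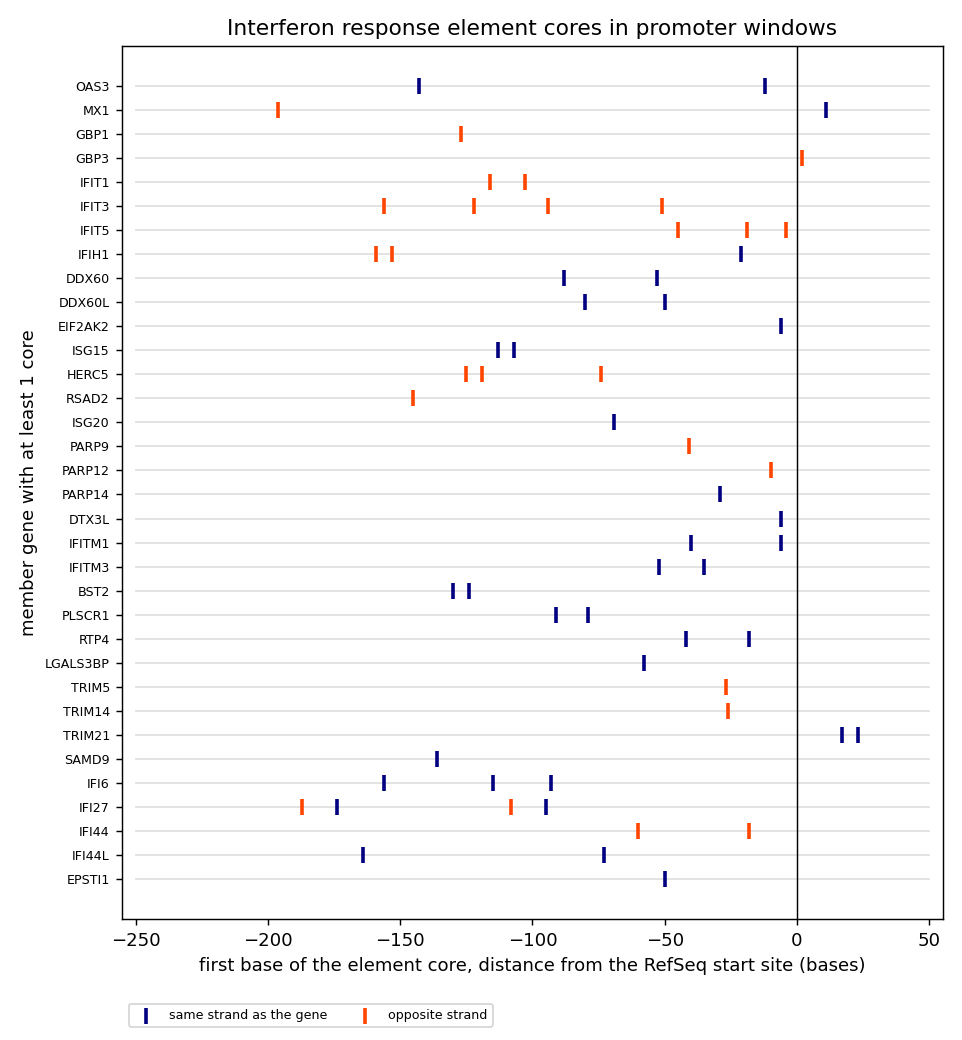
Position of each response element core (x axis, bases from the RefSeq start site, negative before it; colour gives its strand) in the 34 members with at least 1 core (rows); members with several windows have all cores on 1 row. MX1, GBP3 and TRIM21 have cores that begin after the start, and all other cores begin before it. Those of EIF2AK2 and DTX3L, 1 of IFIT5 and 1 of IFITM1 run across it.

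OAS1, OAS2 and OAS3 are activated by double-stranded RNA and make the messenger that switches on RNase L, which cleaves cellular and viral RNA. OASL is counted in the same class, named 2-5A synthetases here, and this activity is not claimed for it. The genes OAS1, OAS3 and OAS2 lie side by side on chromosome 12. OAS2 was at 19.1, 20.8 and 20.3 CPM in intact DMSO libraries, 3.08, 2.96 and 3.55 in deleted DMSO, 33.9, 30.4 and 34.5 in intact 170 nM and 27.4, 28.6 and 24.5 in deleted 1 µM (chr12:112978395-113011723, plus strand, hg38 with GENCODE 29, as for all gene positions here). Every deleted DMSO library lay below every other library, and intact 170 nM libraries were the highest. OAS2 was lower in deleted cells in DMSO, at a log2 fold change of -2.65 ± 0.11 (adjusted p = 3.86e-09), and it rose by 0.71 ± 0.10 (adjusted p = 0.0368) at 170 nM and 3.07 ± 0.11 (adjusted p = 9.52e-10) at 1 µM. The response at 170 nM lost its call in a fit of the 2 groups only (0.69) and with the replicate block (0.71), and without 9 of the 12 libraries in turn, at 0.68 to 0.72. Those were every library other than deleted DMSO replicates 2 and 3 and intact 170 nM replicate 2. Its lower level in treated deleted cells, -0.30 ± 0.10 (adjusted p = 0.0284), lost the call without intact 170 nM replicate 1 (-0.32), intact 170 nM replicate 3 (-0.26) or deleted 1 µM replicate 3 (-0.28), by library totals (-0.21), with no filter (-0.33) and with the replicate block (-0.29).

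OAS3, the longest of the class, was the most abundant, also per length. It was at 18.4 CPM per kb of exon in intact DMSO against 12.6 for OASL, 3.20 for OAS2 and 2.84 for OAS1. OAS3 was at 158, 152 and 144 CPM in intact DMSO libraries, 125, 115 and 120.4 in deleted DMSO, 202, 203 and 221 in intact 170 nM and 278, 262 and 265 in deleted 1 µM. The 4 groups did not overlap, with deleted DMSO lowest and deleted 1 µM highest. The OAS3 log2 fold change was -0.34 ± 0.08 (adjusted p = 0.0043) for genotype in DMSO and 1.16 ± 0.08 (adjusted p = 1.04e-07) for 1 µM. OAS1 and OASL rose at 1 µM by 2.65 and 1.63, and neither passed at 170 nM (0.65 and 0.23). The difference between the responses passed for all 4 members of the class, from 0.70 for OAS3 to 2.35 for OAS2.

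The Mx proteins are dynamin-like GTPases that trap viral nucleocapsids, MX1 in the cytoplasm against influenza-type viruses and MX2 at the nuclear pore against HIV. The guanylate-binding proteins coat vacuoles and membranes of pathogens and are classically induced by interferon gamma. MX1 was at 42.2, 42.2 and 42.3 CPM in intact DMSO libraries, 21.1, 20.8 and 19.5 in deleted DMSO, 70.0, 66.7 and 70.2 in intact 170 nM and 85.8, 93.9 and 80.6 in deleted 1 µM (chr21:41420304-41459214, plus strand). Its 4 groups did not overlap, and the intact DMSO libraries were nearly equal. MX2 was at 11.7, 11.2 and 11.6 CPM in intact DMSO libraries, 3.15, 3.43 and 3.13 in deleted DMSO, 20.7, 19.9 and 19.1 in intact 170 nM and 22.5, 23.4 and 22.5 in deleted 1 µM, again without overlap of the groups. MX1 was lower in deleted DMSO, at -1.05 ± 0.08 (adjusted p = 8.22e-07) and rose by 0.71 ± 0.08 (adjusted p = 0.00965) at 170 nM and 2.08 ± 0.09 (adjusted p = 1.7e-09) at 1 µM. For MX2 the values were -1.82 ± 0.10 (adjusted p = 1.87e-08), 0.80 ± 0.09 (adjusted p = 0.00965) and 2.81 ± 0.10 (adjusted p = 5.69e-10). Both responses at 170 nM lost their calls without any 1 intact DMSO library or without intact 170 nM replicate 1 or 3, while the fold changes stayed at 0.69 to 0.71 for MX1 and 0.76 to 0.83 for MX2; both were also lost in a fit of the 2 groups only (0.68 and 0.77) and with the replicate block (0.71 and 0.80). MX1 was the only one of the pair called higher in treated deleted cells, at 0.33; this call was lost without deleted 1 µM replicate 2 (0.23), with no filter (0.30) and with the GC trend removed (0.13). Both genes are on chromosome 21.

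GBP2 went the other way. GBP2 was at 2.42, 2.64 and 3.23 CPM in intact DMSO libraries, 1.15, 1.53 and 1.14 in deleted DMSO, 3.66, 3.13 and 3.31 in intact 170 nM and 0.537, 0.418 and 0.318 in deleted 1 µM. Deleted 1 µM libraries lay below all others, and 30 to 319 counts stood behind each value. GBP2 was lower in deleted DMSO, at -1.12 ± 0.21 (adjusted p = 0.000867), and fell further at 1 µM, with -1.59 ± 0.23 (adjusted p = 0.000109). In treated cells it was lower at -2.99 ± 0.22 (adjusted p = 1.49e-07), 7.95-fold. GBP1 was also lower in deleted cells in both treatments, at -0.64 and -0.68, and its log2 fold change at 1 µM was -0.05, which did not pass. GBP3 passed in none of the 5 comparisons.

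IFIT proteins bind viral RNA that lacks the methylated cap of host messages and hold it back from translation. The 4 IFIT genes form a cluster on chromosome 10. IFIT1 was at 62.0, 57.3 and 63.7 CPM in intact DMSO libraries, 21.3, 26.3 and 22.7 in deleted DMSO, 95.2, 89.6 and 90.9 in intact 170 nM and 43.2, 46.1 and 41.9 in deleted 1 µM (chr10:89392546-89406486, plus strand). The groups did not overlap, and deleted cells at 1 µM stayed below untreated intact cells. Its log2 fold change was -1.38 ± 0.10 (adjusted p = 2.15e-07) for genotype in DMSO, 0.59 ± 0.09 (adjusted p = 0.0445) at 170 nM, 0.90 ± 0.10 (adjusted p = 7.56e-06) at 1 µM and -1.07 ± 0.09 (adjusted p = 7.43e-07) between treated genotypes. The call at 170 nM was lost without 10 of the 12 libraries in turn, at 0.53 to 0.63. It was also lost with RLE factors (0.59), in a fit of the 2 groups only (0.57) and with the replicate block (0.59). The 2 omissions that kept it were deleted DMSO replicate 2 and intact 170 nM replicate 2.

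IFIT3 was at 76.8, 76.5 and 82.4 CPM in intact DMSO libraries, 34.2, 45.0 and 33.3 in deleted DMSO, 129, 109 and 113 in intact 170 nM and 125, 135 and 125 in deleted 1 µM. Deleted DMSO was lowest without overlap, and the 2 treated groups overlapped. IFIT3 rose by 1.77 ± 0.12 (adjusted p = 8.35e-08) at 1 µM and differed between the responses by 1.20 ± 0.16 (adjusted p = 0.000158), whereas the difference for its neighbour IFIT1, 0.31 ± 0.13 (adjusted p = 0.138), did not pass; it passed without deleted DMSO replicate 2. IFIT2 rose by 1.46 at 1 µM, and IFIT5, with 0.11, did not pass. IFIT2 shares exon bases with LIPA on the opposite strand, and reads of the 2 genes cannot be told apart without strand.

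Sensors of double-stranded RNA start the interferon response and are themselves induced by it. IFIH1 encodes MDA5, which binds long double-stranded RNA; DHX58 encodes LGP2, its regulator; EIF2AK2 encodes PKR, the kinase that stops translation; ADAR edits adenosines in double-stranded RNA and so keeps self RNA from these sensors. IFIH1 was at 15.4, 15.0 and 16.0 CPM in intact DMSO libraries, 6.39, 8.17 and 7.05 in deleted DMSO, 23.5, 18.5 and 21.5 in intact 170 nM and 23.3, 25.5 and 23.4 in deleted 1 µM. Deleted DMSO libraries were lowest without overlap, and the treated groups overlapped. IFIH1 was lower in deleted DMSO, at -1.10 ± 0.12 (adjusted p = 1.12e-05) and rose by 1.74 ± 0.12 (adjusted p = 1.28e-07) at 1 µM. DHX58 and DDX60 behaved alike in direction, with -0.66 and -0.65 for genotype in DMSO and 1.05 and 1.22 at 1 µM, all passing.

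EIF2AK2 was at 173, 166 and 161 CPM in intact DMSO libraries, 226, 322 and 208 in deleted DMSO, 249, 146 and 231 in intact 170 nM and 293, 289 and 294 in deleted 1 µM. All deleted libraries lay above all intact DMSO libraries, and deleted DMSO replicate 2 stood apart at the top. EIF2AK2 was the single member called higher in deleted DMSO, by 0.60 ± 0.18 (adjusted p = 0.0204). The call was lost without deleted DMSO replicate 2, at 0.36, and also without intact DMSO replicate 2 (0.54) or 3 (0.57). It was higher in treated deleted cells too, by 0.49 ± 0.18 (adjusted p = 0.0401), a call lost at 0.25 without intact 170 nM replicate 2 and at 0.44 to 0.48 without any 1 of the intact DMSO or deleted 1 µM libraries, in a fit of the 2 groups only (0.44) and with the replicate block (0.49). Its exons overlap those of GPATCH11 on the opposite strand.

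ADAR was at 423, 411 and 396 CPM in intact DMSO libraries, 376, 372 and 356 in deleted DMSO, 482, 428 and 504 in intact 170 nM and 407, 382 and 417 in deleted 1 µM. The DMSO groups did not overlap, but its log2 fold changes of -0.16 for genotype in DMSO, 0.20 at 170 nM and 0.13 at 1 µM did not pass. Between treated genotypes ADAR was lower, at -0.23 ± 0.08 (adjusted p = 0.033), which did not pass without intact 170 nM replicate 3 (-0.18) or deleted 1 µM replicate 2 (-0.24), by library totals (-0.15), with no filter (-0.26) or with the replicate block (-0.23). DDX60L passed in none of the comparisons.

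ISG15 is a ubiquitin-like protein that is attached to newly made proteins. UBE2L6 is its conjugating enzyme, HERC5 its main human ligase, and USP18 removes it and also restrains the type I receptor. ISG15 was at 33.8, 29.8 and 34.2 CPM in intact DMSO libraries, 24.4, 10.8 and 23.5 in deleted DMSO, 19.0, 54.7 and 27.2 in intact 170 nM and 77.9, 66.5 and 65.0 in deleted 1 µM. Deleted 1 µM libraries lay above all others, and replicate 2 of deleted DMSO and replicate 1 of intact 170 nM were the lowest of their groups. ISG15 exons have 63.4% GC, and these 2 libraries had the lowest GC rho; with the GC trend removed the rise at 1 µM was 1.58 and the call held. ISG15 rose by 1.84 ± 0.34 (adjusted p = 0.000979) at 1 µM and was higher in treated deleted cells by 1.05 ± 0.33 (adjusted p = 0.0177). That second call was lost without intact 170 nM replicate 1 (0.74), intact 170 nM replicate 3 (0.92) or deleted 1 µM replicate 1 (0.93). The difference in DMSO, -0.74 ± 0.33 (adjusted p = 0.104), did not pass, although no deleted library reached an intact one. That difference passed with the GC trend removed, with no filter and without intact 170 nM replicate 1 or 2.

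HERC5 was at 29.3, 27.6 and 31.5 CPM in intact DMSO libraries, 17.4, 21.5 and 19.6 in deleted DMSO, 38.5, 35.5 and 40.7 in intact 170 nM and 62.3, 63.7 and 58.5 in deleted 1 µM. The 4 groups did not overlap. HERC5 was lower in deleted DMSO, at -0.60 ± 0.10 (adjusted p = 0.000495), rose by 1.66 ± 0.10 (adjusted p = 4.84e-08) at 1 µM and ended higher in treated deleted cells by 0.69 ± 0.10 (adjusted p = 7.68e-05). HERC6 had log2 fold changes of -0.49, 1.58 and 0.79 in the same comparisons, all passing. The first of these was called in 17 of 22 alternatives; it was lost with no filter (-0.55), in a fit of the 2 groups only (-0.53) and without intact DMSO replicate 3 (-0.41) or deleted DMSO replicate 1 (-0.47) or 3 (-0.46). USP18 rose by 1.76 at 1 µM and UBE2L6 by 0.54. UBE2L6 remained lower in treated deleted cells, at -0.47.

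**Figure D5:**
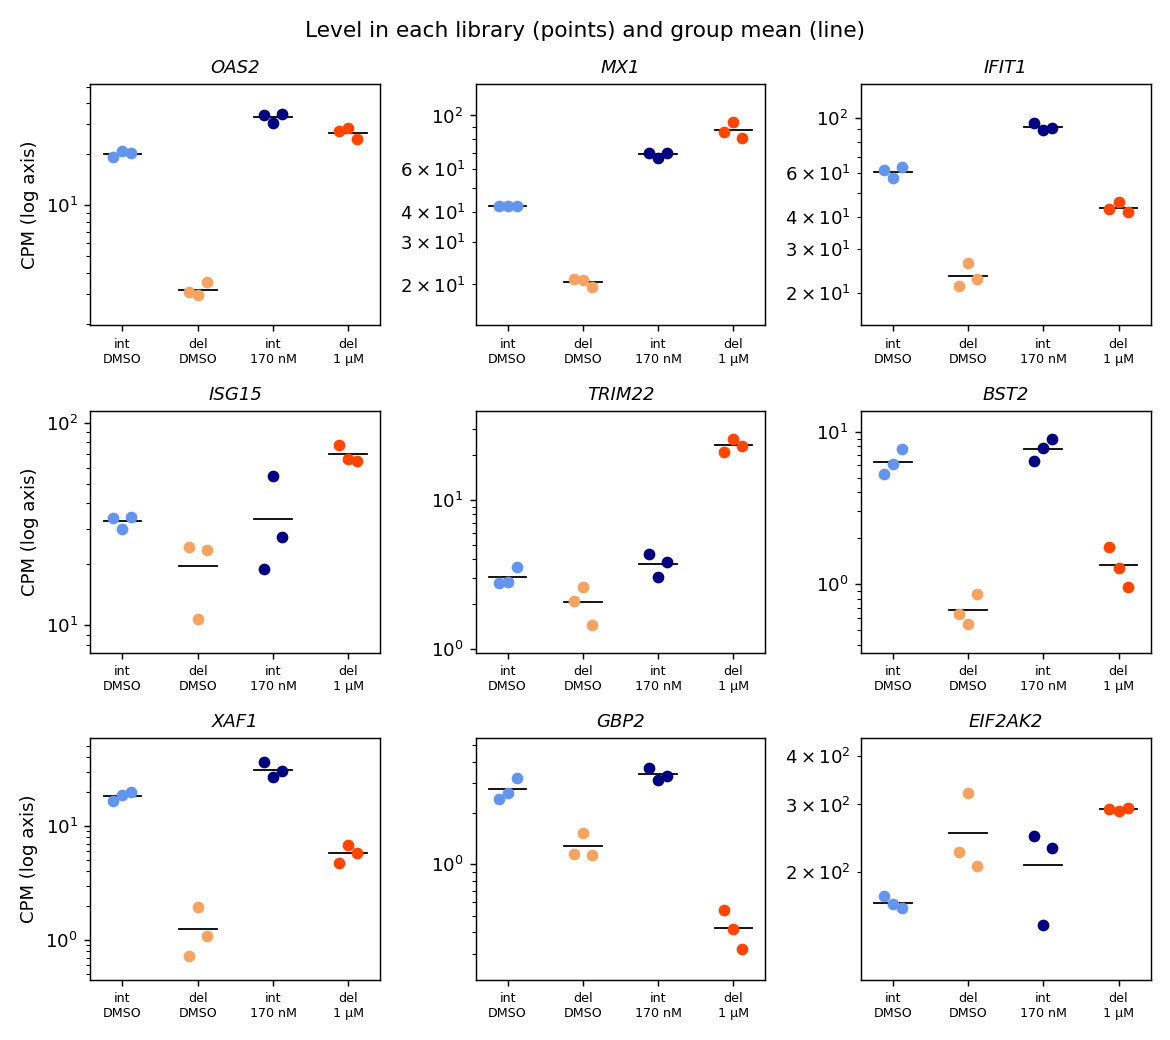
CPM (y axis, log scale, 1 panel per gene) of 9 members in each library (points) with the group mean (line), for intact and deleted cells in DMSO, intact cells at 170 nM and deleted cells at 1 µM. OAS2, MX1 and TRIM22 return at 1 µM to above intact DMSO; BST2, XAF1 and IFIT1 rise and remain below it; GBP2 falls; ISG15 and EIF2AK2 spread within deleted DMSO and intact 170 nM.

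The nucleotide and RNA processing enzymes act on the substrates of replication: RSAD2, viperin, makes a chain-terminating nucleotide from CTP, CMPK2 supplies the CTP, ISG20 is a 3′ exonuclease and HELZ2 a large helicase-like protein. RSAD2 was at 1.86, 1.78 and 1.49 CPM in intact DMSO libraries, 0.326, 0.380 and 0.177 in deleted DMSO, 2.49, 2.47 and 3.36 in intact 170 nM and 1.80, 2.36 and 2.52 in deleted 1 µM, with 14 to 324 counts a library. Deleted DMSO was lowest without overlap. RSAD2 was lower in deleted DMSO, at -2.54 ± 0.27 (adjusted p = 1.03e-05) and rose by 2.93 ± 0.27 (adjusted p = 2.17e-06) at 1 µM, back into the range of intact DMSO and just above it. RSAD2 and CMPK2 share exon bases on opposite strands.

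ISG20 was at 5.46, 4.24 and 5.05 CPM in intact DMSO libraries, 6.38, 5.44 and 6.29 in deleted DMSO, 5.72, 8.12 and 4.35 in intact 170 nM and 11.8, 16.9 and 12.4 in deleted 1 µM. Deleted 1 µM libraries were highest, and the other 3 groups overlapped. ISG20 rose by 1.18 ± 0.21 (adjusted p = 0.000661) at 1 µM, and in DMSO the genotype difference of 0.30 ± 0.21 (adjusted p = 0.304) did not pass. HELZ2 was at 120.0, 123 and 108 CPM in intact DMSO libraries, 112, 43.3 and 108 in deleted DMSO, 89.8, 158 and 142 in intact 170 nM and 163, 139 and 153 in deleted 1 µM. Deleted DMSO replicate 2 lay far below the rest, and HELZ2 exons have 67.2% GC. The rise of HELZ2 at 1 µM, 0.79 ± 0.28 (adjusted p = 0.0458), lost its call without that library, at 0.45, and without 7 others in turn, at 0.73 to 0.85: any 1 intact DMSO library, intact 170 nM replicate 3 or any 1 deleted 1 µM library. It was lost as well by library totals (0.80), in a fit of the 2 groups only (0.79) and with the replicate block (0.82). CMPK2, at 8 to 62 counts a library, rose by 2.20 at 1 µM.

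ADP-ribosylating enzymes mark viral and host proteins and RNA. PARP9 and DTX3L work as a pair, PARP14 and PARP12 are mono-ADP-ribosyltransferases, and PARP10 is a further member of that group. PARP10 was at 45.5, 46.1 and 44.4 CPM in intact DMSO libraries, 26.0, 11.5 and 24.9 in deleted DMSO, 29.9, 52.8 and 45.7 in intact 170 nM and 82.7, 79.7 and 79.9 in deleted 1 µM. Deleted 1 µM libraries were highest and deleted DMSO lowest, and the 2 libraries of high mitochondrial share were the lowest of their groups. PARP10 exons have 66.9% GC and overlap those of GRINA on the other strand. PARP10 was lower in deleted DMSO, at -1.12 ± 0.25 (adjusted p = 0.00323), rose by 1.96 ± 0.25 (adjusted p = 5.04e-05) at 1 µM and differed between the responses by 2.04 ± 0.35 (adjusted p = 0.00109).

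DTX3L was at 56.9, 59.5 and 54.0 CPM in intact DMSO libraries, 62.0, 73.2 and 60.1 in deleted DMSO, 76.9, 56.9 and 75.5 in intact 170 nM and 105, 96.7 and 100.7 in deleted 1 µM. In DMSO the deleted libraries lay slightly above the intact ones, with a log2 fold change of 0.20 ± 0.12 (adjusted p = 0.221) that did not pass. DTX3L rose at 1 µM by 0.63 ± 0.12 (adjusted p = 0.00103) and its partner PARP9 by 0.92; their exons overlap on opposite strands. PARP12 and PARP14, both lower in deleted DMSO at -0.69 and -1.10, rose by 0.88 and 1.54.

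Several members act at membranes. IFITM1, IFITM2 and IFITM3 stiffen membranes against viral fusion, BST2, tetherin, ties budding virions to the cell, PLSCR1 is a scramblase, RTP4 a receptor-transporting protein and LGALS3BP a secreted glycoprotein. IFITM2 was at 51.5, 51.8 and 54.6 CPM in intact DMSO libraries, 60.4, 58.2 and 62.2 in deleted DMSO, 53.3, 73.9 and 48.7 in intact 170 nM and 39.6, 40.6 and 41.6 in deleted 1 µM. Deleted 1 µM was lowest without overlap and deleted DMSO lay above intact DMSO. IFITM2 fell at 1 µM, with -0.57 ± 0.13 (adjusted p = 0.0036), the opposite of IFITM1, which rose by 0.81 ± 0.19 (adjusted p = 0.00536). The IFITM genes are near-identical copies, and IFITM1 and IFITM2 share exon bases, so counts between them are uncertain. BST2 was at 5.29, 6.11 and 7.67 CPM in intact DMSO, 0.636, 0.543 and 0.859 in deleted DMSO, 6.41, 7.85 and 8.95 in intact 170 nM and 1.74, 1.28 and 0.953 in deleted 1 µM. It rose by 0.95 ± 0.26 (adjusted p = 0.012) and still lay 5.87-fold below treated intact cells. The BST2 rise was not called by limma-voom (0.91) or without deleted 1 µM replicate 1 (0.71).

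LGALS3BP had the most CPM of the class, and per length it was near IFITM3, at 72.1 and 84.1 CPM per kb in intact DMSO. LGALS3BP was at 259, 256 and 261 CPM in intact DMSO libraries, 184, 126 and 179.9 in deleted DMSO, 233, 299 and 261 in intact 170 nM and 137, 133 and 138 in deleted 1 µM. All deleted libraries lay below all intact ones. The log2 fold change was -0.66 ± 0.13 (adjusted p = 0.00143) in DMSO and -0.96 ± 0.13 (adjusted p = 3.87e-05) in treated cells, and the value at 1 µM, -0.27 ± 0.13 (adjusted p = 0.143), did not pass; without deleted DMSO replicate 2 it passed. RTP4 had 16 to 26 counts in intact DMSO libraries and 0 in all 3 deleted DMSO libraries, which allows 3 counts over that group, or 0.0136 CPM. It was therefore at least 19.8-fold lower than in intact DMSO, and at least 16.0-fold higher at 1 µM, where libraries held 8 to 32 counts. PLSCR1 rose by 0.72 at 1 µM and its genotype difference in DMSO, -0.13, did not pass.

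Most TRIM proteins are ubiquitin ligases. TRIM5 restricts retroviral capsids, TRIM21 is an antibody receptor inside the cell, TRIM25 assists RIG-I, and TRIM22 limits transcription and assembly of several viruses. TRIM22 was at 2.77, 2.83 and 3.54 CPM in intact DMSO libraries, 2.10, 2.62 and 1.45 in deleted DMSO, 4.30, 3.02 and 3.85 in intact 170 nM and 21.1, 25.8 and 22.9 in deleted 1 µM (chr11:5689689-5737089, plus strand). Deleted 1 µM libraries lay several-fold above all others. TRIM22 rose by 3.50 ± 0.21 (adjusted p = 3.51e-08), 11.3-fold, the largest rise of any member with counts in both groups, and its response differed from that at 170 nM by 3.21 ± 0.28 (adjusted p = 3.86e-06). In DMSO it was lower in deleted cells, at -0.57 ± 0.20 (adjusted p = 0.0429), a call lost without deleted DMSO replicate 3 (-0.37) or 1 (-0.59), intact DMSO replicate 3 (-0.44) or 1 (-0.64) or intact 170 nM replicate 3 (-0.57). It was also lost by limma-voom (-0.62), in a fit of the 2 groups only (-0.60) and with the replicate block (-0.58).

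TRIM25 was at 158, 149 and 151 CPM in intact DMSO libraries, 122, 104 and 117 in deleted DMSO, 155, 159.5 and 172 in intact 170 nM and 113, 98.5 and 109.8 in deleted 1 µM. All deleted libraries lay below all intact ones, and doxorubicin moved neither genotype past the threshold, with 0.09 ± 0.09 (adjusted p = 0.744) at 170 nM and -0.10 ± 0.09 (adjusted p = 0.449) at 1 µM. The genotype difference was -0.41 ± 0.09 (adjusted p = 0.0027) in DMSO and -0.60 ± 0.09 (adjusted p = 8.39e-05) in treated cells. TRIM5 and TRIM21 rose by 0.41 and 0.71 at 1 µM, and TRIM14, with -0.03, did not pass. The rise of TRIM5 lost its call without deleted DMSO replicate 1 (0.33) or 3 (0.39) or any 1 deleted 1 µM library (0.37 to 0.43). TRIM25 and TRIM14 overlap DGKE and NANS on the opposite strand.

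SP100 and SP110 are proteins of nuclear bodies that silence incoming viral DNA, and SAMD9 and its neighbour SAMD9L restrict poxviruses by blocking translation. SP100 was at 104, 100.5 and 107 CPM in intact DMSO libraries, 65.3, 80.2 and 65.6 in deleted DMSO, 128, 123 and 119.7 in intact 170 nM and 95.4, 101.3 and 98.3 in deleted 1 µM. Deleted DMSO was lowest without overlap, and deleted 1 µM reached the lower edge of intact DMSO. SP100 was lower in deleted DMSO, at -0.56 ± 0.09 (adjusted p = 0.000338), and rose by 0.48 ± 0.09 (adjusted p = 0.00108) at 1 µM. SP110 was at 47.5, 51.9 and 52.0 CPM in intact DMSO libraries, 36.8, 56.2 and 36.4 in deleted DMSO, 84.9, 72.7 and 66.2 in intact 170 nM and 65.5, 69.8 and 62.0 in deleted 1 µM. The DMSO groups overlapped through deleted DMSO replicate 2. SP110 rose by 0.61 ± 0.15 (adjusted p = 0.00742) at 1 µM, while its value at 170 nM, 0.56 ± 0.15 (adjusted p = 0.176), did not pass; it passed without deleted DMSO replicate 2.

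SAMD9 was at 192, 183 and 186 CPM in intact DMSO libraries, 82.7, 127 and 78.2 in deleted DMSO, 315, 183 and 276 in intact 170 nM and 151, 161 and 153 in deleted 1 µM. SAMD9L was at 35.5, 36.0 and 37.7 CPM in intact DMSO libraries, 6.72, 10.7 and 6.93 in deleted DMSO, 56.3, 34.0 and 48.8 in intact 170 nM and 14.2, 14.5 and 14.7 in deleted 1 µM. Both genes had their lowest values in deleted DMSO, and in both deleted DMSO replicate 2 was the highest of its group and intact 170 nM replicate 2 the lowest. SAMD9 was lower in deleted DMSO, at -0.96 ± 0.19 (adjusted p = 0.00149), and so was SAMD9L, at -2.17 ± 0.19 (adjusted p = 2.07e-06). At 1 µM they rose by 0.69 ± 0.19 (adjusted p = 0.0131) and 0.83 ± 0.19 (adjusted p = 0.00392), and SAMD9 lost that call without deleted DMSO replicate 1 (0.60) or 3 (0.57). No deleted 1 µM library of either gene reached an intact DMSO library, and in treated cells SAMD9L was 3.21-fold lower and SAMD9 1.67-fold lower.

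The IFI-named genes hold several of the widest genotype differences. IFI6 is a small protein of the endoplasmic reticulum and mitochondria that blocks flavivirus replication, IFI27 is a mitochondrial protein and a common blood marker of interferon exposure, IFI44L is a cytoplasmic protein often read in interferon scores, and XAF1 is an interferon-induced promoter of cell death. IFI6 was at 99.6, 91.0 and 97.2 CPM in intact DMSO libraries, 12.5, 9.88 and 15.2 in deleted DMSO, 80.9, 155 and 90.0 in intact 170 nM and 37.7, 31.0 and 30.8 in deleted 1 µM. Every deleted library lay below every intact one. IFI6 was lower in deleted DMSO, at -2.94 ± 0.23 (adjusted p = 5.31e-07), 7.65-fold, rose by 1.40 ± 0.22 (adjusted p = 0.000217) at 1 µM and was still 3.27-fold below treated intact cells. Per length it had the highest level of all 56 members in intact DMSO, at 111 CPM per kb against 84.1 for IFITM3.

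IFI44L was at 11.0, 12.3 and 13.0 CPM in intact DMSO libraries, 0.814, 0.828 and 1.04 in deleted DMSO, 20.7, 15.0 and 18.3 in intact 170 nM and 4.76, 7.10 and 4.82 in deleted 1 µM (chr1:78619922-78646145, plus strand). Its groups did not overlap. IFI44L was 13.5-fold lower in deleted DMSO, with a log2 fold change of -3.75 ± 0.20 (adjusted p = 1.92e-08), and rose by 2.63 ± 0.20 (adjusted p = 2.54e-07) at 1 µM. IFI27 and IFI35, 10.7-fold and 2.94-fold lower in deleted DMSO, rose by 2.29 and 0.98. EPSTI1 rose by 2.21 and IFI44 by 0.91. The EPSTI1 difference between treated genotypes, 0.02, did not pass.

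XAF1 is the one member on 17p (chr17:6755447-6775647, plus strand), the arm labelled as lost. XAF1 was at 16.6, 18.7 and 19.8 CPM in intact DMSO libraries, 0.725, 1.93 and 1.07 in deleted DMSO, 36.5, 26.8 and 30.5 in intact 170 nM and 4.72, 6.78 and 5.75 in deleted 1 µM. The 4 groups did not overlap, and deleted 1 µM stayed below untreated intact cells. XAF1 was 14.7-fold lower in deleted DMSO, with a log2 fold change of -3.88 ± 0.27 (adjusted p = 2.28e-07), the largest of the set apart from RTP4. XAF1 rose by 2.21 ± 0.26 (adjusted p = 2.36e-05) at 1 µM and was 5.43-fold lower in treated deleted cells, at -2.44 ± 0.24 (adjusted p = 2.3e-06). The 4 members on 17q, DHX58, IFI35, LGALS3BP and TRIM25, were lower in deleted DMSO as well, at -0.66, -1.55, -0.66 and -0.41.

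The genes upstream of the set moved less uniformly. Of 21 interferon ligand genes only IFNE and IFNL1 had enough counts to be tested, and IFNB1 had 26 counts over all 12 libraries. IFNE was called higher in deleted DMSO than in intact DMSO, by 1.43, at low levels that overlapped. It was at 0.215, 0.645 and 0.326 CPM in intact DMSO and 0.459, 1.48 and 1.24 CPM in deleted DMSO. IFNL1, a type III interferon, was at 0.0296, 0.109 and 0.0253 CPM in deleted DMSO and 0.985, 1.14 and 0.943 CPM in deleted 1 µM, a rise of 4.19 ± 0.82 (adjusted p = 0.00142). In intact cells it was at 0, 0.0287 and 0.0204 CPM in DMSO and 0.207, 0.0745 and 0 at 170 nM, and its log2 fold change there, 2.33, did not pass. Between treated genotypes, at unequal doses, IFNE and IFNL1 were both called higher in deleted cells, by 3.37 and 3.48. Of all genes 25.9% were higher in that comparison. Of 8 receptors and kinases tested, IFNAR2, IFNGR2 and IFNAR1 were higher in deleted DMSO, at 1.06, 0.82 and 0.83. JAK1 and IFNGR1 were lower, at -0.39 and -0.34, where 18.8% of all genes were higher and 16.2% lower. IFNAR1, IFNAR2 and IFNGR2 lie close together on chromosome 21, as does IL10RB, and the part of position in these calls was not tested. IFNLR1, also on the list, had 10 counts over all 12 libraries and was not tested. At 1 µM IL10RB rose, by 0.64.

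Among the transcription factors of the pathway, IRF1, which binds the same elements, was at 25.8, 26.7 and 29.3 CPM in intact DMSO, 12.3, 11.9 and 13.9 in deleted DMSO, 26.1, 31.2 and 27.5 in intact 170 nM and 51.5, 52.8 and 51.4 in deleted 1 µM. IRF1 too was lowest in deleted DMSO, at -1.10 ± 0.10 (adjusted p = 2.65e-06), and it rose by 2.03 ± 0.10 (adjusted p = 8.26e-09) at 1 µM. STAT2 differed in that it was higher in deleted DMSO, at 0.60, and rose by a further 1.09. Of 9 upstream nucleic acid sensing genes tested 6 rose at 1 µM (17.5% of all genes), among them TLR3 by 1.70 and STING1 by 1.51, and 4 were lower in deleted DMSO (16.2% of all genes), with TLR3 at -1.85. Of 7 negative regulators SOCS1 and SOCS3 rose at 1 µM, by 1.30 and 0.71, and TRIM27 fell, with -0.36, where 17.5% of all genes rose and 13.1% fell. TREX1 is listed at 0 counts in every library. Whether its exons overlap those of another gene was not checked, so absence of its RNA cannot be read from this.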

How the data were processed

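The authors deposited raw counts per gene, 1 column for each of the 12 libraries; STAR 2.7.9a, the genome build hg38 and featureCounts (Subread 2.0.1) are named per the submitters' processing notes. No source used here gives the annotation release or whether counting was by strand. Counts were filtered with filterByExpr, scaled by TMM and tested with edgeR 4.0.16 in R 4.3.3, all 4 groups sharing 1 quasi-likelihood model over 21803 genes; p-values were adjusted by Benjamini-Hochberg over all of them, and errors are standard errors. Positions and GC content are from GENCODE 29, promoters from RefSeq. CPM uses TMM-scaled totals. Within groups no 2 libraries agreed within sampling noise. The members and gene lists were chosen with earlier results of these data known. Values in all libraries were given for the most abundant member and the one with the largest response at 1 µM in each role class, for members on 17p, for members called at 170 nM and, per comparison, for up to 3 called against the set's direction, by lowest p. Upstream genes were named where they passed with the lowest p, up to 2 per list and comparison. BST2 and the other genes named outside these rules were added after their values were seen. Alternatives were RLE or total scaling, other filters, DESeq2 1.42.0, limma-voom (limma 3.58.1), a fit of the groups compared, a replicate block, a GC correction by loess (span 0.5), a 2-fold change as well, and leaving out libraries. Counts over the list of transcription factors are not reported here. Floors of 3 counts cover counting error only.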

Additional observations from a re-analysis of the deposited data

Results flagged for a closer look

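Of the 29 members picked by rule for a full description, 16 differed between the response at 1 µM in deleted cells and that at 170 nM in intact cells. The calls are from the edgeR test of the difference itself, with adjusted p under 0.05. Of all genes 10.3% were called larger and 6.74% smaller. Many of the 29 were picked for a large change at 1 µM, and GBP2 and IFITM2 also for their direction in this contrast. The count therefore follows in part from the choice and supports nothing further. The values below are log2 fold changes at 1 µM minus those at 170 nM. They were larger at 1 µM for TRIM22 (3.21), OAS2 (2.35), RSAD2 (2.22), IFI44L (2.06), PARP10 (2.04), MX2 (2.02), ISG15 (1.79), XAF1 (1.44), MX1 (1.38), IFIH1 (1.29), HERC5 (1.28), IFI6 (1.23), IFIT3 (1.20) and OAS3 (0.70). They were smaller at 1 µM for GBP2 (-1.87) and IFITM2 (-0.73), which fell at 1 µM and did not pass at 170 nM. Dose and genotype change together in this contrast and cannot be told apart.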

How the results depend on the processing

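Each median of the members kept its sign in every alternative: -0.80 to -0.67 for genotype in DMSO, 0.24 to 0.38 at 170 nM, 0.90 to 1.10 at 1 µM, -0.33 to -0.13 between treated genotypes and 0.48 to 0.79 for the difference of responses. The count of members that rose at 170 nM was least stable. It was 4 in the fit reported, 10 with no filter, 16 by DESeq2, 20 with the GC trend removed, 12 without the 2 libraries of highest mitochondrial share, 0 in a fit of the 2 groups only and 0 with a 2-fold change as well, and 0 to 12 when 1 library was left out. Calls of a rise over all genes moved too, from 6 to 73 with no filter, 253 by DESeq2, 455 with the GC trend removed and 109 without the 2 libraries. With the replicate number as a block the count of rising members was 0 as well. That block gave 40 lower members in DMSO, 43 higher at 1 µM and 26 larger in the difference. Same-numbered libraries did not deviate together (18 correlations from -0.22 to 0.12, 2 of them over 0.1). The 1 member higher in deleted DMSO became 2 with the GC trend removed, 0 without the 2 libraries, 0 with 2-fold as well and 0 to 1 over single omissions. Requiring 2-fold as well left 21 lower in deleted DMSO, and 27 higher and 1 lower at 1 µM. It left 3 higher and 8 lower between treated genotypes, and 21 larger and 1 smaller in the difference. These 2-fold counts have no share of all genes beside them. With the GC trend removed 4 members fell at 1 µM and 6 were lower in the difference. Lower calls over all genes grew too, from 2862 to 5353 at 1 µM and from 1470 to 4445 in the difference.

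Some values near 0 changed sign, none of them called. Scaling by library totals gave 0.0164 for the EIF2AK2 difference of responses, 0.0392 for that of ADAR, and -0.0226 for ISG15 and -0.0405 for LGALS3BP at 170 nM. By limma-voom ISG15 was at -0.10, and with a filter of 1 CPM in 3 libraries LGALS3BP was at -0.007278. With the GC trend removed HELZ2 was at -0.14 between treated genotypes and PARP10 at 0.0911 at 170 nM; without the 2 libraries they were at -0.0300 and 0.124, and the EIF2AK2 difference at 0.23. When 1 library was left out, ranges at 170 nM were -0.50 to 0.32 for ISG15, -0.009174 to 0.36 for HELZ2, -0.26 to 0.12 for PARP10, -0.0485 to 0.27 for IFITM2, -0.0653 to 0.12 for LGALS3BP and -0.17 to 0.35 for IFI6. They were -0.0221 to 0.35 for HELZ2 between treated genotypes, and for the difference of responses -0.31 to 0.0934 for EIF2AK2 and -0.0641 to 0.27 for SP110. The cause was not tested. RTP4, with 0 to 44 counts a library, and CMPK2, with 8 to 62, rest on few counts, and with 3 libraries a group small changes can go uncalled.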
